A study of Bos taurus with 20 samples.

Results

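Skin from the horn-forming region was set against control skin from elsewhere on the skull of the same animal, in 1 scurred and 1 polled female animal. Scurs are loose, rudimentary horns, and polled cattle have none. The comparison holds 4 of the 20 arrays of the series, all on 1 of its 5 chips, chosen by their titles. Each animal gave 2 arrays of the same 2 RNA extracts with the dyes exchanged, so the number of independent samples is 2 animals, 1 of each horn type, and horn type cannot be told apart from the animal. The biopsies held epidermis, dermis and dermal connective tissue, and the breed and age of the animals and their genotype at the polled locus are not given in the sources used here. The horn site RNA of the scurred animal was also hybridised on chip 2 and that of the polled animal on chip 3. No control skin of a horned animal was analysed here.

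Horns grow from the skin and connective tissue over the frontal bone, where an epidermis that keratinises heavily covers a dermis in which the bony core later forms. Skin away from this site carries hair follicles with sebaceous and sweat glands, and thin sheets of muscle, nerves and vessels lie under it. A full-depth biopsy therefore mixes keratinocytes, gland cells, fibroblasts, endothelium, Schwann cells, muscle and immune cells. In such bulk samples, fewer cells of a type and less RNA per cell cannot be told apart.

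Total RNA was measured on 2-colour Agilent arrays. Markers of skin were present: of 22 measured basal keratinocyte genes, 0 were below detection in either RNA of the scurred animal and 3 and 2 at the horn site and control of the polled animal. On the 4 arrays, 64.75% to 72.55% of spots in a channel were well above background and 0 were saturated. Probes with signal well above background in 2 or more of these 4 RNAs were tested, which left 16422 probes and 12473 genes with 1 probe each. The values below are log2 ratios of horn site over control skin, so that 1 is a 2-fold higher and −1 a 2-fold lower signal at the horn site. They are given in the order first array and exchanged dyes of the scurred animal, then first array and exchanged dyes of the polled animal. Levels are log2 intensities and compare the 4 RNAs at 1 probe, not different genes. Each dye order lay a median of 0.121 from the animal's mean in the scurred and 0.0882 in the polled animal across genes. The 95th percentile of this distance was 0.415 and 0.295, beside an SD of the animal's mean over genes of 0.46 and 0.363.

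The site difference in the 2 animals had little in common across genes, with a correlation of −0.0708 over 12473 genes, which share their arrays and are not independent replicates. Values were spread more widely in the scurred animal (SD over genes 0.46) than in the polled animal (0.363). When the mean of the 2 animals was tested against 0 with limma, 0 of 16422 probes passed an adjusted p of 0.05 (0%), and the lowest adjusted p was 0.934. At an unadjusted p under 0.05 there were 805 probes, of which 452 were higher and 353 lower at the horn site. The smallest two-sided p that an exact sign-flip permutation over 2 animals can give is 0.5. Genes are therefore described by their values and by a call with no test, namely both arrays of an animal with 1 sign and the animal's mean past 2-fold.

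In the scurred animal, 299 genes (2.4%) were past 2-fold higher and 134 (1.07%) lower at the horn site. In the polled animal, 128 genes (1.03%) were higher and 169 (1.35%) lower. Both animals had 18 genes higher (0.144%) and 4 lower (0.0321%). The animals opposed each other in further genes, with 35 (0.281%) higher in the scurred and lower in the polled animal and 38 (0.305%) the other way round. Median centring of each array in place of loess moved the median of all genes in the polled animal from −0.016 to −0.284 and turned the split of shared genes from 18 higher and 4 lower into 8 higher and 16 lower.

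**Figure D1:**
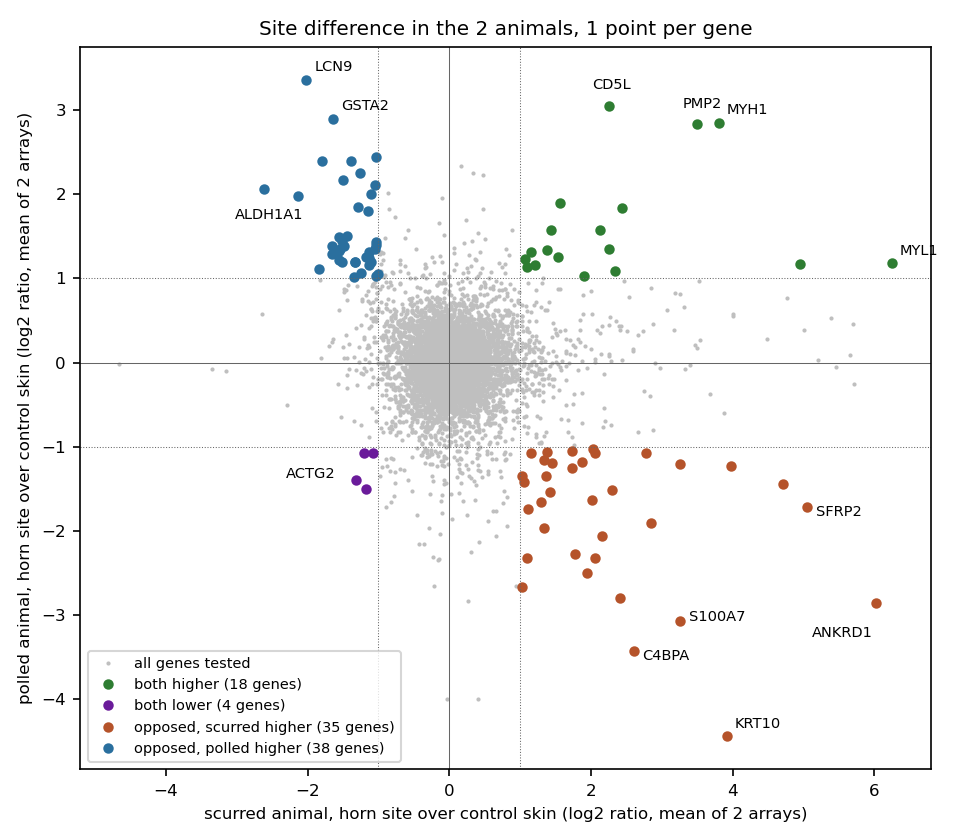
Log2 ratio of horn site over control skin in the scurred animal (x axis) against the polled animal (y axis), 1 point per gene and 12473 genes, each value the mean of 2 arrays; dotted lines mark 2-fold. The 18 genes higher in both animals lie at the upper right, the 4 lower in both at the lower left, and the 35 and 38 opposed genes in the other corners.

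Myelin genes of Schwann cells, the glia that wrap peripheral axons, were higher at the horn site of both animals. PMP2, a fatty acid binding protein of myelin, had log2 ratios of 3.63, 3.34, 2.97 and 2.69, with a mean of 3.16 (SE 0.21, n = 2 animals). PLLP, plasmolipin, a membrane protein of myelin, had 1.46, 1.66, 1.72 and 2.09. The 4 arrays of each gene lay on 1 side of 0, with the scurred animal higher in PMP2 and the polled animal higher on both of its arrays in PLLP. Against the spread of horn site levels among the 11 animals of the series (SD within horn type 1.19 for PMP2 and 0.60 for PLLP), PMP2 and PLLP were among 3 of the 18 genes whose site difference was past 2 SDs in both animals. Levels of PMP2 were 10.11 at the horn site and 6.62 in control skin of the scurred animal, and 10.61 and 7.78 in the polled animal.

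Of the 29 measured Schwann cell and nerve genes, 13 (44.8%) were higher on all 4 arrays, beside 9.81% of all genes, and 2 (6.9%) lower, beside 11.1% of all genes. The list's median was 0.21 in the scurred and 0.26 in the polled animal, where the medians of all genes were −0.01 and −0.02, and it kept its sign in both animals under every alternative tried. MAL, another myelin membrane protein, had 0.73, 1.02, 1.37 and 1.80. The PMP2 probe is printed because this shared difference rests on it alone. The array file lists 60 bases for a probe, of which the first 30, read 5′ to 3′ as listed, follow.
PMP2 probe: ctgttcgtctcttaagacaataagctattt
The summed intensity of the list was 67655 at the horn site and 45803 in control skin of the scurred animal, and 75877 and 50304 in the polled animal. NEFH, the heavy neurofilament chain of axons, did not follow the myelin genes, with −0.94, −0.93, 1.14 and 1.30. ERBB3, another member of the list, was also opposed, with −0.88, −0.28, 0.22 and 0.72, the polled mean turning sign with median centring. Of the 29 genes, 0 at the horn site and 2 in control skin of the scurred animal were not well above background. In the polled animal these were 2 and 4.

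Tissue macrophage genes formed a further shared group. The chains of complement C1q, which resident macrophages make, were 3 of the 18 genes. C1QA had 1.39, 1.37, 1.24 and 1.43, C1QB had 2.22, 2.28, 1.20 and 1.49, and C1QC had 1.75, 2.04, 0.76 and 1.29. With median centring the polled values were below 2-fold, at 0.75 for C1QA, 0.78 for C1QB, 0.49 for C1QC and 0.76 for RNASE6, another of the 18. For C1QA the animals overlapped, while C1QB and C1QC were higher in the scurred animal on both of its arrays. CD5L, a protein secreted by macrophages, had 2.54, 1.98, 3.30 and 2.80, so here the polled animal was the higher one. RNASE6, a ribonuclease of myeloid cells, had 1.62, 1.46, 1.22 and 1.29, and VSIG4, a complement receptor of resident macrophages, 0.62, 1.06, 1.36 and 1.21.

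Among the 44 measured macrophage, dendritic and granulocyte genes, 24 (54.5%) were higher on all 4 arrays and 2 (4.55%) lower, beside 9.81% and 11.1% of all genes. In the scurred animal the list's median was 0.61 under the main processing. In the polled animal it was 0.23, and −0.09 with median centring. The summed intensity went from 51559 in control skin to 121424 at the horn site of the scurred animal and from 93390 to 142543 in the polled animal. A pair of genes of granulocytes and phagocytes had opposite signs in the animals: S100A12, a calcium-binding protein of granulocytes and inflamed epidermis, had 1.78, 2.11, −2.34 and −2.65, and NCF4, an oxidase subunit, 2.64, 2.70, −0.82 and −0.82. T and B lymphocyte genes differed less, with 10 of 34 (29.4%) higher on all 4 arrays, 0 lower, beside 9.81% and 11.1% of all genes, and 0 past 2-fold in either animal. CXCR6, a chemokine receptor of T cells, had 0.64, 1.10, 0.44 and 0.50.

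Contractile genes of skeletal muscle were higher in both animals for a few genes and in the scurred animal for nearly the whole list. MYH1, a heavy chain of fast myosin, had 3.85, 3.78, 2.64 and 3.06 (mean 3.33, SE 0.30, n = 2 animals). MYL1, a light chain of fast myosin, had 6.46, 6.04, 1.22 and 1.15. MB, myoglobin, which stores oxygen in muscle, had 5.09, 4.80, 1.22 and 1.13, and SLN, sarcolipin, which regulates the calcium pump of the sarcoplasmic reticulum, 2.13 in the scurred and 1.58 in the polled animal, as means of the 2 arrays. In MYL1 and MB the arrays of the scurred animal lay far above those of the polled animal, and in MYH1 and SLN they lay closer. With median centring MYL1 and MB were below 2-fold in the polled animal, at 0.73 each. The horn site level of muscle genes varied widely among the 11 animals, with an SD of 2.66 for MYH1 and 2.88 for MYL1, so that the shared difference of MYH1 was 1.43 SDs in the scurred and 1.07 SDs in the polled animal.

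Of the 39 measured skeletal muscle genes, 35 were past 2-fold higher in the scurred animal (2.4% of all genes) and 4 in the polled animal (1.03% of all genes), and the 35 made up 11.7% of the 299 genes called higher in the scurred animal. The list's median was 2.13 in the scurred and 0.17 in the polled animal. Its members ranged from 0.33 to 6.25 in the scurred animal, all 39 above 0, and from −1.18 to 2.85 in the polled animal, 28 of them above 0. MYH7, the slow myosin heavy chain, had 5.89, 5.42, −0.05 and 0.23, the polled mean turning sign under 4 alternatives, and MYBPC2, a myosin-binding protein of fast fibres, 1.91, 1.84, −1.08 and −1.28. Summed over the list, the intensity was 446045 at the horn site and 48599 in control skin of the scurred animal, but 63425 and 65519 in the polled animal. The list's summed intensity at the horn site of the polled animal was thus below that of its control skin although 28 of 39 genes were above 0. At most 3 of the 39 genes were not well above background in an RNA (0 at the scurred horn site, 1 in its control, 3 at the polled horn site and 2 in its control), and what part muscle in a biopsy has in the other results was not tested.

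Muscle genes with signal at the horn site alone in the scurred animal gave lower bounds there. MYOT, myotilin of the Z disc, was not well above background in control skin of the scurred animal and at least 39.7-fold higher at its horn site. LMOD2, which nucleates actin in striated muscle, was at least 20.9-fold higher in the same comparison, and PPP1R3A, the glycogen-targeting subunit of a muscle phosphatase, at least 6.05-fold. In the polled animal these genes had log2 ratios of 0.53, 0.28 and 0.33. Each bound sets the brighter mean against, on each array, the higher of the lowest signal that was well above background and the dim probe's own signal. The lowest such level was 6.16 in control skin of the scurred animal, and the control levels of the 3 probes lay at 6.32, 6.17 and 6.24.

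Probes for MYH1 are printed because closely related myosin chains share sequence and a probe may detect more than 1 of them. The array file gave 2 tested probes under this name, whose first 30 bases follow in the same way.
MYH1 brighter probe: ttatcatctatcctactctactgcaaagga
MYH1 dimmer probe: aacaccaagaagaagctagagacagacatc
The brighter probe gave the values above. With the dimmer probe the log2 ratios were 1.47, 1.85, 1.12 and 1.55, again above 0 on all 4 arrays and past 2-fold in both animals. The size of the MYH1 difference therefore depended on the probe, and which myosin genes each probe detects was not tested here.

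The remaining shared higher genes came from different roles. AGT, angiotensinogen, the precursor of angiotensin, had 1.49, 1.40, 1.72 and 1.43. Its level differed more between the animals, at 8.79 at the horn site and 7.34 in control skin of the scurred animal against 11.84 and 10.26 in the polled animal, than between the sites. SFRP5, a secreted WNT antagonist, had 0.50, 1.81, 0.99 and 1.62, with the 2 dye orders far apart, and was below 2-fold in the polled animal with median centring (0.88) and in both animals with the first dye order only. BRB, CAPN6, PEX5L and SCARA5 were also among the 18; they were outside the rule for named genes and are listed here after their values were seen. POSTN, periostin, a matrix protein of connective tissue, was near the threshold in the polled animal, with 2.12, 2.80, 0.68 and 1.25. LPL, lipoprotein lipase, had 1.27, 1.78, 0.98 and 0.78.

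**Figure D2:**
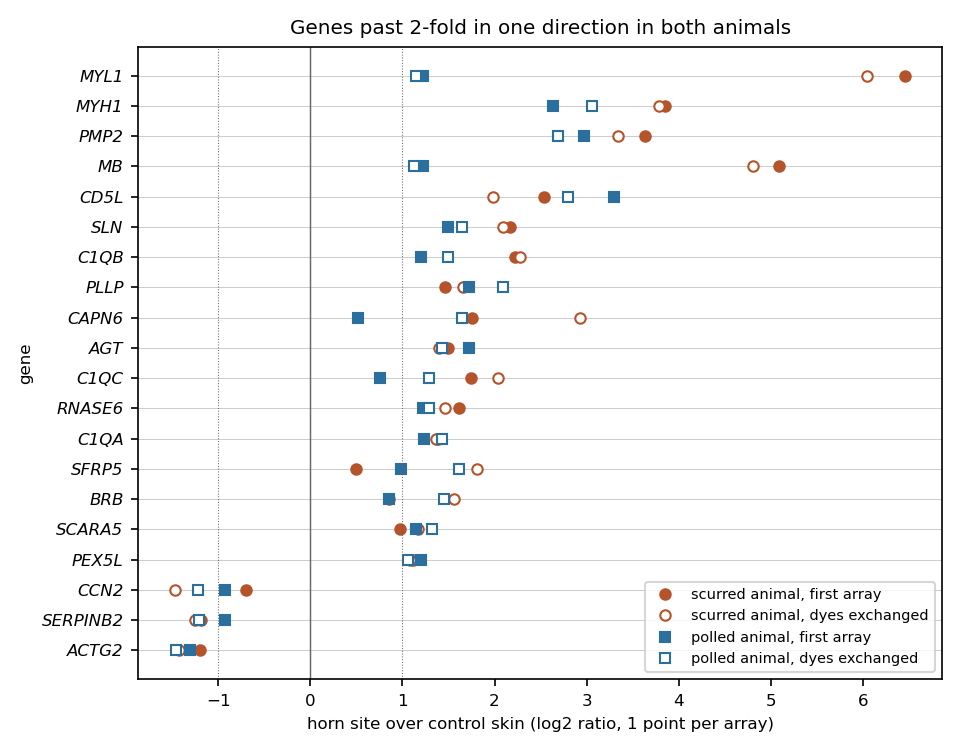
Log2 ratio of horn site over control skin (x axis) for genes past 2-fold in 1 direction in both animals (y axis), with 1 point per array, circles for the scurred and squares for the polled animal and open symbols for exchanged dyes. PMP2, MYH1 and CD5L lie above 1 on all 4 arrays, MYL1 and MB are far higher in the scurred animal, and ACTG2, CCN2 and SERPINB2 lie below 0 on all arrays.

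The 4 genes lower in both animals included ACTG2, CCN2 and SERPINB2. ACTG2, the smooth muscle actin of gut, vessels and the muscles of hair follicles, had −1.20, −1.42, −1.31 and −1.46 (mean −1.35, SE 0.10, n = 2 animals), so that all 4 arrays lay close together. CCN2, a matricellular protein that mechanical tension and TGF-beta induce, had −0.70, −1.47, −0.93 and −1.22, and SERPINB2, a protease inhibitor of keratinocytes and macrophages, −1.18, −1.25, −0.92 and −1.21. With the first dye order only, CCN2 was below 2-fold in both animals and SERPINB2 in the polled animal. None of the 4 genes was past 2 SDs of the 11 animals in both animals. CNN1, calponin of smooth muscle, had −1.67, −0.01, −1.54 and −1.04, so its first scurred array was far below the exchanged one. Of the 28 measured smooth muscle and pericyte genes, 9 (32.1%) were lower and 2 (7.14%) higher on all 4 arrays, beside 11.1% and 9.81% of all genes. DES, desmin, which skeletal muscle also holds, went against ACTG2 in the scurred animal, with 1.70, 2.41, −1.49 and −0.68.

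Cell cycle genes were lower at the horn site of both animals, by less than 2-fold for nearly all of them. Of 65 measured genes, 54 (83.1%) were lower on all 4 arrays and 1 (1.54%) was higher, beside 11.1% and 9.81% of all genes. The list's median was −0.50 in the scurred and −0.46 in the polled animal, and −0.53, −0.50, −0.42 and −0.53 on the 4 arrays. No alternative turned its sign in either animal, and its medians ranged from −0.71 to −0.48 and from −0.75 to −0.42. RRM2, the regulatory subunit of the enzyme that makes deoxynucleotides, had −0.96, −0.94, −1.28 and −1.19. CDC6, which loads replication origins, had −0.73, −1.22, −0.63 and −0.93, CCNB1, the mitotic cyclin B1, −0.51, −1.19, −0.50 and −1.05, and TOP2A, the topoisomerase of dividing cells, −1.03, −0.76, −0.53 and −0.90. FANCD2, a DNA repair protein of the same phase, had −1.17, −1.09, −0.98 and −0.79. ZWINT, a kinetochore protein, was opposed, with −0.37, −0.47, 0.27 and 0.35.

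Markers of keratinocytes and hair follicles, where much of the cell division in skin takes place, moved beside the cell cycle genes as follows, and their part in that result was not tested. The median of 22 basal keratinocyte genes was −0.20 in the scurred animal and 0.06 in the polled animal, where it turned sign under 3 alternatives, and summed intensity was 421655 against 513266 in control skin of the scurred and 208182 against 233813 in the polled animal. The median of 18 hair shaft and inner root sheath genes was −0.62 in the scurred and 0.03 in the polled animal, the latter turning sign with exchanged dyes alone.

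Genes of hair formation were lower at the horn site of the scurred animal. Of 18 measured genes, 7 were past 2-fold lower there, beside 1.07% of all genes, and 0 were past 2-fold in the polled animal. KRT27, a keratin of the inner root sheath, had −4.28 and −5.03 in the scurred animal and was not well above background in either RNA of the polled animal. The probe named TCHH (trichohyalin) by its gene identifier, which the array describes as similar to repetin, a related epidermal gene, had −3.33, −3.37, −0.02 and −0.15, and PADI3, a deiminase of the root sheath, −3.10, −3.19, −0.16 and −0.04. PADI3 was not well above background at the horn site of the polled animal. KRT71, another inner root sheath keratin, had −1.47 and −2.15 in the scurred animal and was likewise not well above background in either RNA of the polled animal. Of the 18 genes, 6 were not well above background at the horn site and 4 in the control skin of the polled animal, so for these a site difference in that animal was not measurable.

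Several pigment cell genes were lower at the horn site. Of 16 measured melanocyte genes, 6 (37.5%) were lower and 3 (18.8%) higher on all 4 arrays, both above the shares of all genes (11.1% and 9.81%). PMEL, the fibril protein of melanosomes, had −0.81, −0.86, −1.07 and −1.19, and MLANA, a melanosome membrane protein, −1.49, −1.21, −0.58 and −0.79. TYRP1, an enzyme of melanin synthesis, had −0.05, −0.48, −1.28 and −1.85. TYR, tyrosinase, was not well above background at the horn site of the polled animal and at least 1.61-fold lower there than in its control skin, at dim levels of 6.52 and 7.21. The coat colour at the biopsy sites is not given in the sources used here, and the list's median of −0.24 in the scurred and 0.03 in the polled animal turned sign in the latter under 2 alternatives.

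**Figure D3:**
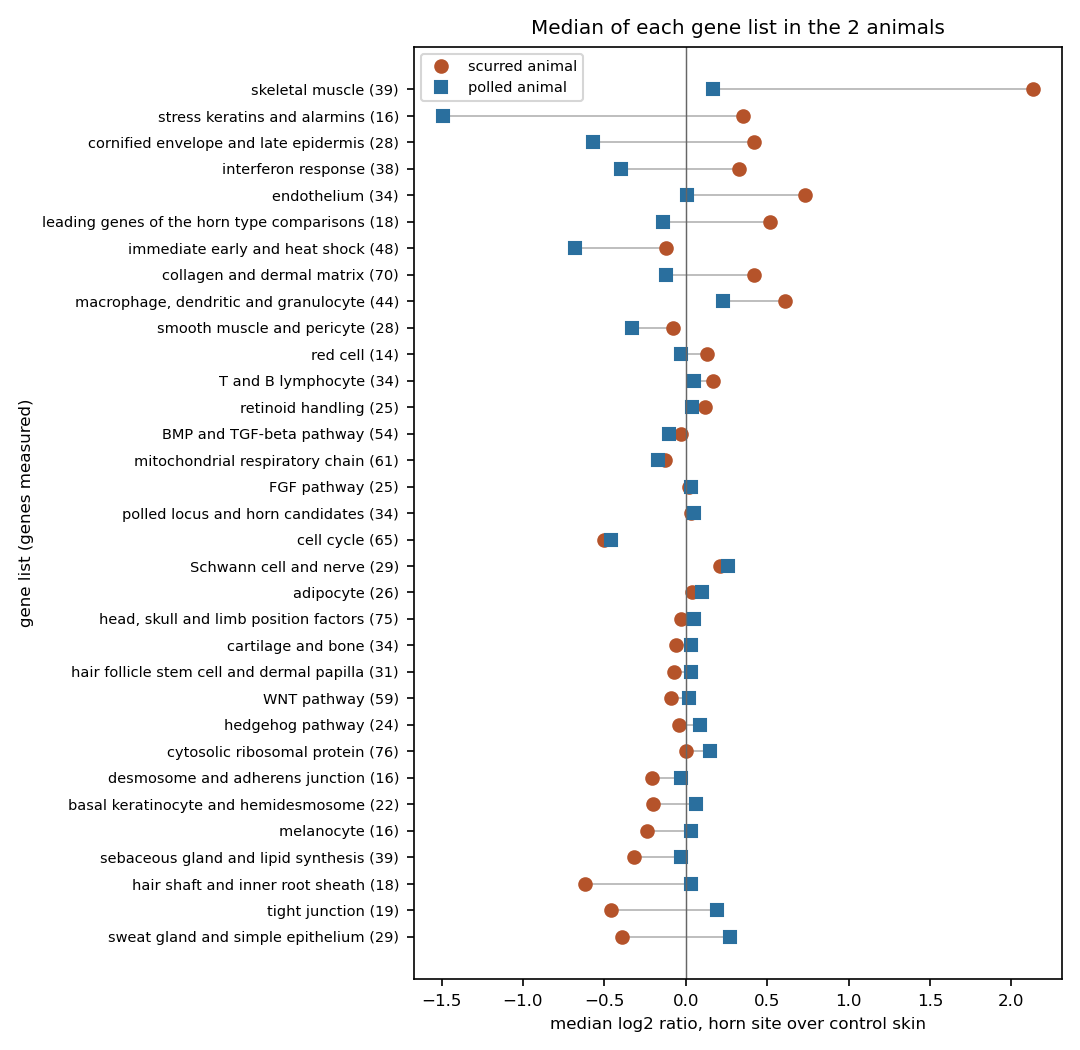
Median log2 ratio of horn site over control skin (x axis) of 33 gene lists (y axis, with the number of genes measured) in the scurred animal (circles) and the polled animal (squares). Cell cycle and Schwann cell lists have nearly the same median in both animals, skeletal muscle stands apart at 2.13 in the scurred animal, and the cornified envelope, stress keratin, interferon, tight junction and sweat gland lists lie on opposite sides of 0.

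Immediate early transcription factors and heat shock proteins are induced by cells within minutes of injury or stress, and their list here also holds cytokines such as IL6 and CCL2. Most genes of this list were lower at the horn site, past 2-fold mostly in the polled animal. Of 48 measured genes, 17 were past 2-fold lower in the polled animal, beside 1.35% of all genes. In the scurred animal 2 were past 2-fold lower and 3 higher, beside 1.07% and 2.4% of all genes. On all 4 arrays, 19 (39.6%) were lower and 2 (4.17%) higher, beside 11.1% and 9.81% of all genes. The list's median was −0.12 in the scurred and −0.68 in the polled animal. FOSB, a partner of JUN in the AP-1 factor, had −0.74, −1.01, −0.94 and −1.51, and CSRNP1, an immediate early nuclear protein, −1.20, −0.75, −1.39 and −1.32. IL6, a cytokine of acute injury, had 0.74, 0.07, −3.73 and −4.26, which was −3.47 SDs of the 11 animals in the polled animal. ATF3, a stress-induced repressor, had −0.23, −0.63, −2.07 and −2.24, and CCL2, which attracts monocytes, 0.33, 0.19, −2.60 and −3.06. HSPA1A, an inducible HSP70, opposed, with 1.35, 1.34, −1.86 and −2.08.

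The animals opposed each other in the outer epidermis. KRT10, the keratin of differentiating suprabasal cells, had 4.19, 3.66, −4.18 and −4.70. Its level was 17.65 at the horn site and 13.73 in control skin of the scurred animal, but 10.99 and 15.43 in the polled animal, so the horn sites were the highest and the lowest of the 4 RNAs. LY6D, a surface protein of stratified epithelium, had 2.56, 2.26, −2.81 and −2.79, and KLK5, a protease that frees cells at the skin surface, 1.61, 2.51, −2.21 and −2.43. LORICRIN, the main protein of the cornified envelope, had 0.97, 0.91, −2.44 and −2.89, and KRT14, a basal keratin, −0.17, 0.39, −1.07 and −1.03, with dye orders that disagreed in the scurred animal. Of 28 measured cornified envelope and late epidermis genes, 25 were above 0 in the scurred animal and 1 in the polled animal, and 5 (all genes 0.281%) were past 2-fold higher in the scurred and lower in the polled animal. The list's median was 0.42 in the scurred and −0.57 in the polled animal and turned sign in neither under the alternatives. Summed intensity was 306594 against 91008 in control skin of the scurred and 15248 against 73106 in the polled animal, where 7 of the 28 genes were not well above background at the horn site and 2 in control skin. The probe named TCHH, with the doubt given above, was the lowest member in the scurred animal.

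Alarmins and stress keratins, which keratinocytes make in wounded, rubbed or inflamed skin, followed the same division for several members. S100A7 had 3.03, 3.49, −2.93 and −3.21, S100A8 0.78, 1.25, −2.64 and −2.70, and S100A9 1.75, 1.82, −2.10 and −2.45. The stress keratin KRT6A was lower in both animals, with −0.18, −0.39, −1.88 and −2.04; its probe is described as a close relative, and keratins of this family, globins and glutathione transferases share sequence that a probe may detect. Of 16 measured genes, 10 were past 2-fold lower in the polled animal (1.35% of all genes) and 6 of them past 2-fold higher in the scurred animal (0.281%). A further 2 were past 2-fold lower in the scurred animal, beside 1.07% of all genes. On all 4 arrays 3 (18.8%) were lower and 0 higher, beside 11.1% and 9.81% of all genes. S100A8 was below 2-fold in the scurred animal under 3 alternatives (0.78 to 0.98). The medians were 0.35 and −1.49. These genes also varied widely between animals at the horn site, with an SD over the 11 animals of 2.93 for KRT10 and 3.63 for S100A7, and a site difference of 1.34 and −1.52 SDs for KRT10 and of 0.90 and −0.85 SDs for S100A7. Set against the horned animal of its own chip at the horn site, the scurred animal was 3.80 higher in KRT10 and 4.95 in S100A7, and the polled animal 0.08 and 0.16.

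**Figure D4:**
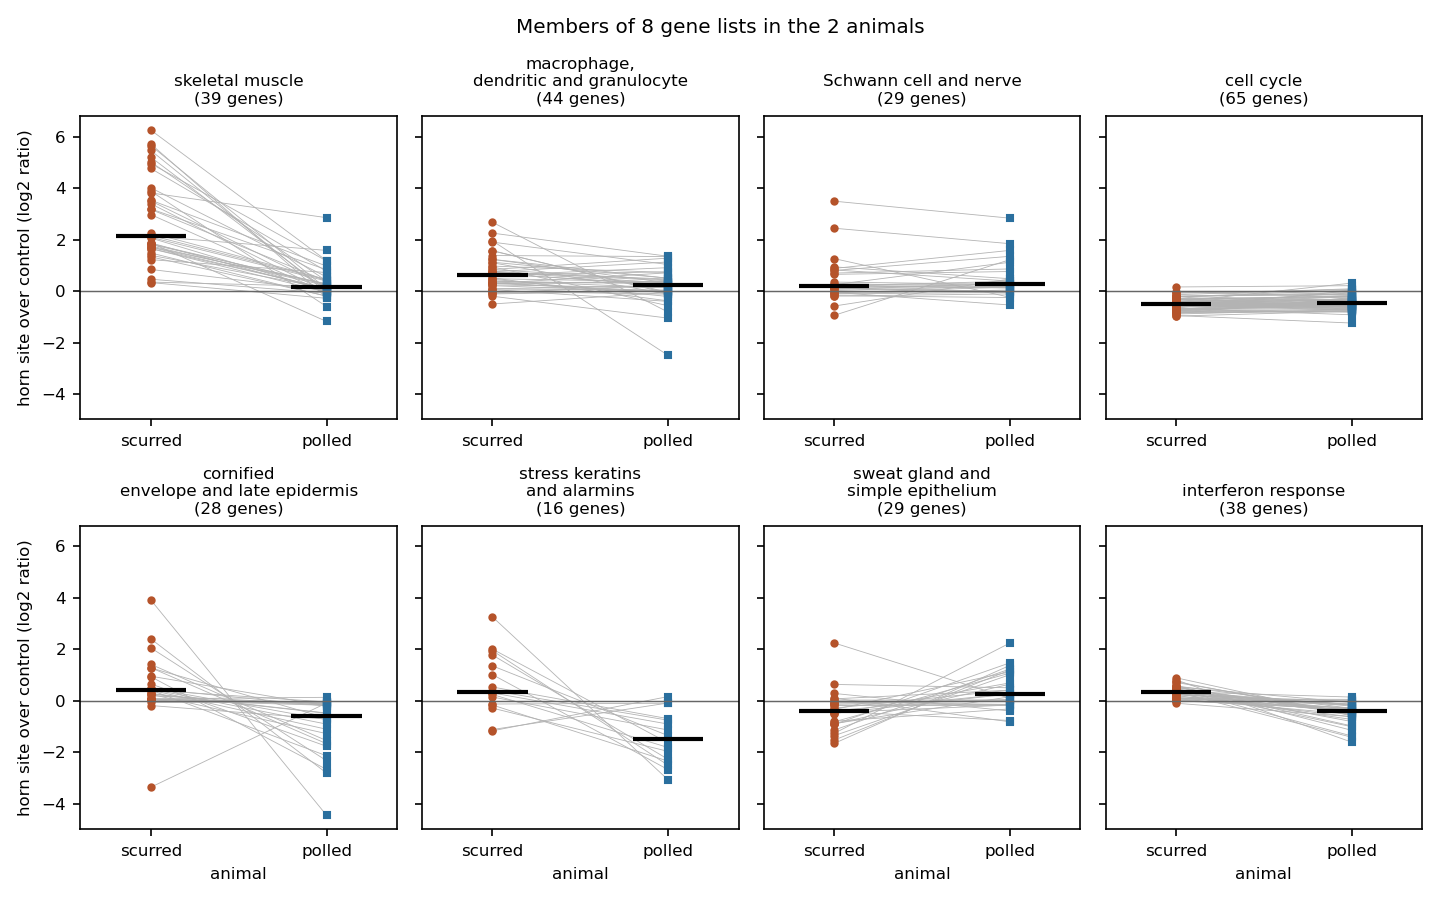
Log2 ratio of horn site over control skin (y axis) for each measured member of the gene lists named on the panels in the scurred and the polled animal (x axis), with lines joining the values of a gene and black bars at the medians. Muscle genes are spread up to 6.25 in the scurred animal, cell cycle genes lie mostly below 0 in both, and the lines of the epidermal, gland and interferon lists cross 0.

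Several gland genes opposed in the other direction, lower at the horn site of the scurred animal and higher at that of the polled animal. FOXA1, a transcription factor of sweat gland and other simple epithelia, had −1.86, −1.44, 1.14 and 1.61, and KRT19, a keratin of simple epithelium, −1.64, −0.89, 1.94 and 2.57. CLDN8, a claudin of tight junctions in ducts, had −1.46, −1.65, 1.67 and 1.31, and CLDN3 −1.26, −0.99, 1.04 and 1.44. LPO, lactoperoxidase, an antimicrobial enzyme of gland secretions, had −2.02, −2.23, 1.85 and 2.10. Of 29 measured sweat gland and simple epithelium genes, 5 opposed past 2-fold in this direction and 0 in the other, beside 0.305% and 0.281% of all genes. FOXA1 was below 2-fold in the polled animal with median centring (0.99), as did CLDN3 (0.80), and KRT19 and CLDN3 did so in the scurred animal with exchanged dyes only (−0.89 and −0.99). Their medians were −0.39 and 0.27, and those of 19 tight junction genes −0.46 and 0.19, with no sign turned by an alternative. Other members did not oppose: 7 (24.1%) were lower and 2 (6.9%) higher on all 4 arrays, beside 11.1% and 9.81% of all genes. GABRP, a GABA receptor subunit of glands, had −0.66, −0.93, −0.25 and −0.37, and CA2, a carbonic anhydrase, −0.34, −0.47, −0.59 and −0.93. AQP5, the water channel of secreting gland cells, had 2.23, 2.28, 0.11 and 0.09, and CITED4, a transcriptional co-activator, 0.58, 0.70, 0.42 and 0.59.

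Some lipid synthesis genes opposed in the same direction as these gland genes. SCD, the desaturase of fatty acids that sebaceous cells carry at high level, had −2.01, −1.60, 2.22 and 2.55, and its other probe −1.91, −1.17, 1.75 and 2.50. THRSP, a regulator of fatty acid synthesis, had −1.94, −1.06, 2.10 and 2.24. Of 39 measured sebaceous and lipid synthesis genes, 3 opposed past 2-fold with the polled animal higher, beside 0.305% of all genes. The list's median was −0.32 in the scurred and −0.03 in the polled animal, where it turned sign under 4 alternatives. On all 4 arrays, 7 (17.9%) were lower and 1 (2.56%) was higher, beside 11.1% and 9.81% of all genes. DGAT2, which makes triglyceride, opposed the other way, with 1.08, 1.58, −0.89 and −0.84. AWAT1, a wax synthase of sebaceous glands, was lower in both animals, with −1.02, −1.15, −0.58 and −0.50. Enzymes of retinoid and drug metabolism were among the largest opposed values: ALDH1A1, which makes retinoic acid, had −2.88, −2.37, 1.77 and 2.35, and GSTA2, a glutathione transferase, −1.68, −1.59, 3.02 and 2.78. LCN9 and BDA20, both lipocalins that carry small lipophilic molecules, had −1.94, −2.11, 3.18 and 3.53, and −1.52, −1.25, 2.37 and 2.42. The array describes the LCN9 probe as similar to the human gene, so its name rests on that likeness.

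**Figure D5:**
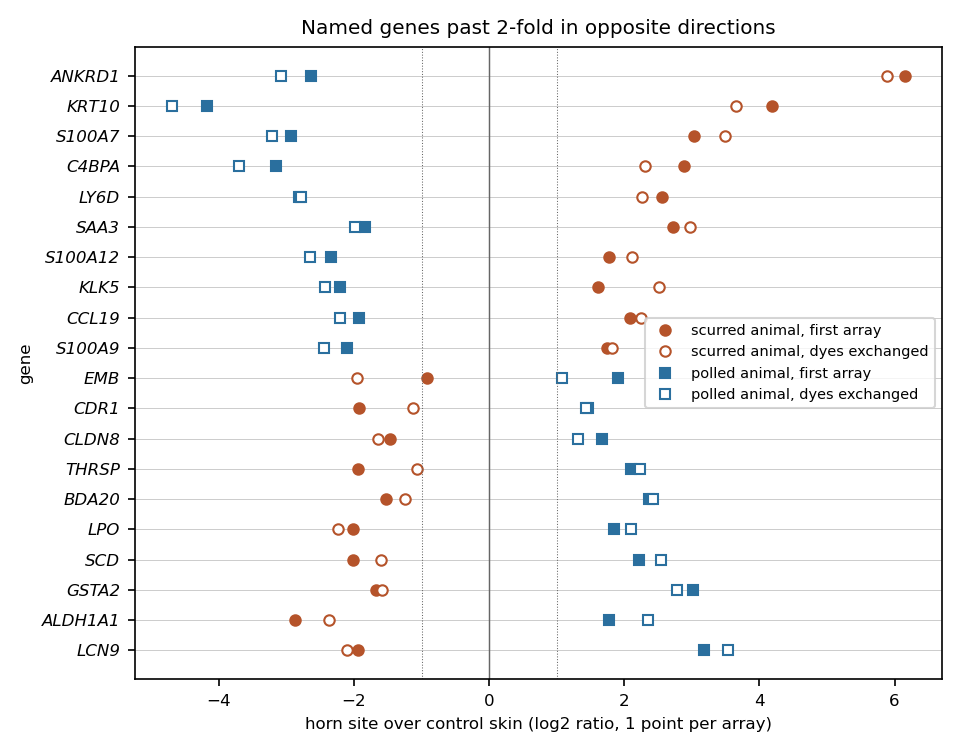
Log2 ratio of horn site over control skin (x axis) for 10 named genes of each direction among those past 2-fold in opposite directions (y axis), with 1 point per array, circles for the scurred and squares for the polled animal and open symbols for exchanged dyes. The upper 10 genes are higher in the scurred and lower in the polled animal, the lower 10 the reverse, and the arrays of the 2 animals do not overlap.

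Most interferon response genes lay above 0 at the horn site of the scurred and below 0 at that of the polled animal. Several secreted immune proteins among the opposed genes did the same, of which 3 follow. CCL19, a chemokine that guides lymphocytes and dendritic cells, had 2.08, 2.25, −1.92 and −2.20. SAA3, an acute phase apolipoprotein, had 2.72, 2.97, −1.84 and −1.99, and C4BPA, an inhibitor of complement, 2.89, 2.31, −3.16 and −3.70. Of 38 measured interferon response genes, 36 were above 0 in the scurred and 3 in the polled animal, with medians of 0.33 and −0.40, and no alternative turned either sign. None was past 2-fold in the scurred animal, beside 2.4% of all genes higher and 1.07% lower there. In the polled animal 4 were past 2-fold lower, beside 1.35% of all genes. GBP6, an interferon-induced GTPase, had 0.97, 0.68, −1.48 and −1.71, and ISG15, a ubiquitin-like interferon product, −0.01, 0.70, −1.67 and −1.16.

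Matrix and vessel genes were higher at the horn site of the scurred animal. Of 70 measured collagen and dermal matrix genes, 63 were above 0 in the scurred and 22 in the polled animal, 13 were past 2-fold higher in the scurred animal, beside 2.4% of all genes, and the medians were 0.42 and −0.12. FMOD, a proteoglycan that orders collagen fibrils, had 1.78, 1.69, −0.90 and −0.87, and TNC, tenascin C, a matrix protein of repair, −0.18, 0.78, −2.44 and −2.06. Of 34 endothelial genes, 31 were above 0 in the scurred animal, with a median of 0.73. In the polled animal the median was 0.01 and turned sign under 4 alternatives. KDR, the main VEGF receptor, had 1.03, 1.25, 0.22 and 0.33, with the polled mean below 0 under median centring, whereas SELE, the E-selectin of activated vessels, had −1.19, −1.31, −0.54 and −0.95. The red cell genes HBB, with 3.48, 3.04, −1.12 and −1.29, and ALAS2, with 1.35, 2.01, −0.96 and −0.70, differed in the same direction between the animals. The list of 14 red cell genes did not follow them as a whole, with medians of 0.13 in the scurred and −0.03 in the polled animal. The latter turned sign with exchanged dyes alone. Past 2-fold, 1 of the 14 opposed, beside 0.281% of all genes. ANK1, an ankyrin of red cells, had 1.09, 1.51, −0.02 and 0.31. The list's summed intensity, in which bright globin probes weigh most, was 154583 at the horn site and 34897 in control skin of the scurred animal. In the polled animal it was 125940 and 216587, and the part of blood in the other results was not tested.

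Secreted WNT antagonists had some of the largest values. SFRP2 had 5.29, 4.82, −1.44 and −2.01, and SFRP4 5.11, 4.31, −1.15 and −1.73. The level of SFRP2 was 14.28 at the horn site and 9.22 in control skin of the scurred animal, and 9.91 and 11.63 in the polled animal. The horn site of the scurred animal thus had the highest SFRP2 level of the 4 RNAs, whereas SFRP4 was low only in control skin of the scurred animal, at 9.18 beside 13.89, 13.60 and 15.04. FRZB, a related antagonist, had 2.32, 2.39, 0.49 and 0.49. The WNT list as a whole did not follow them, with 5 of 59 genes (8.47%) higher and 9 (15.3%) lower on all 4 arrays, beside 9.81% and 11.1% of all genes. The SFRP2 probe begins with the 30 bases below, 5′ to 3′ as listed, shown because the difference rests on this single probe.
SFRP2 probe: tgcagattaaaccattgtagcttacctgta

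Of the genes that direct the shape of the head, FOXL2 and ALX1 were higher at the horn site of both animals. FOXL2, a forkhead factor of the eyelid, ovary and craniofacial mesenchyme, had 2.40, 2.66, 0.72 and 0.85. It was not well above background in the control skin of either animal, so that it entered the test through the horn site RNAs only and had to be higher there. The signal was at least 5.79-fold higher at the horn site of the scurred animal and at least 1.72-fold higher in the polled animal, with the probe's own control levels of 6.43 and 6.48 as the floor. ALX1, a homeobox factor of the facial mesenchyme, had 1.91, 2.08, 0.72 and 0.97, and MAB21L1, which acts in eye and skull development, 1.13, 0.80, 0.77 and 0.71. ZIC2, a zinc finger factor of the midline, had 0.42, 0.31, 1.14 and 1.31, with control skin of the scurred animal not well above background. Of 75 measured position factors, 15 (20%) were higher and 4 (5.33%) lower on all 4 arrays, beside 9.81% and 11.1% of all genes. The list's medians were −0.03, which turned sign under 4 alternatives, and 0.05. In the scurred animal 35 were above 0, and 3 were past 2-fold higher and 5 lower, beside 2.4% and 1.07% of all genes. In the polled animal 54 were above 0, and 1 was past 2-fold higher and 1 lower, beside 1.03% and 1.35%. Not well above background were 13 at the horn site and 9 in control skin of the scurred animal, and 4 and 5 in the polled animal. TFAP2B, a factor of neural crest and epidermis, was opposed, with −0.82, −1.48, 0.87 and 0.58. The first 30 bases of the FOXL2 probe, 5′ to 3′ as listed, are shown because the difference rests on it alone.
FOXL2 probe: cctggttgttttgtagtgtgtcgtccggag

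Growth pathway lists had medians near 0. In the BMP and TGF-beta list 2 genes were past 2-fold higher and 3 lower in the scurred animal, beside 2.4% and 1.07% of all genes. In the polled animal 0 were past 2-fold higher and 1 lower, beside 1.03% and 1.35%. The FGF list had 1 gene past 2-fold, lower in the scurred animal (1.07% of all genes), and the hedgehog list had 0. In the BMP and TGF-beta list of 54 genes, 7 (13%) were higher and 15 (27.8%) lower on all 4 arrays, beside 9.81% and 11.1% of all genes, with GREM1, a BMP antagonist, at −1.01, −0.76, −1.18 and −1.12 and CHRDL1, another BMP antagonist, at 1.54, 0.90, 1.13 and 0.59. LTBP2, which binds latent TGF-beta, had −1.62, −0.98, −0.40 and −0.14, and BAMBI, a decoy receptor, −0.82, −1.38, 0.81 and 0.48. In the FGF list of 25 genes, 2 (8%) were higher and 1 (4%) lower on all 4 arrays, beside 9.81% and 11.1% of all genes. FGFR2, a receptor of epithelia, had −2.15, −0.66, −0.18 and 0.61, with dye orders that disagreed. In the hedgehog list of 24 genes, 2 (8.33%) were higher and 2 (8.33%) lower, beside the same shares of all genes. CDON, a hedgehog co-receptor, had 0.43, 0.56, 0.55 and 0.40. Of 34 cartilage and bone genes, 6 (17.6%) were higher and 6 (17.6%) lower, beside 9.81% and 11.1% of all genes. ACP5, the acid phosphatase of osteoclasts and macrophages, had 0.41, 1.30, 0.68 and 1.18. RUNX2, the factor of osteoblasts, had 0.88, 1.36, 0.16 and 0.24, with the polled mean below 0 under median centring.

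Genes named in earlier comparisons of horn types on these arrays share the horn site RNA of both animals, and are given for their site values only. AIF1, a calcium-binding protein of macrophages, had 1.76, 1.37, 0.15 and −0.32, so the sites differed in the scurred animal alone. IFI47, an interferon-induced GTPase, had 1.01, 0.79, −0.59 and −0.56, and SPON1, a matrix protein, 0.76, 0.83, −1.21 and −0.92. MSX1, a homeobox factor of limb and face, had −0.43, −0.12, −1.31 and −0.91, below 0 on all arrays. LRAT, which esterifies retinol, had −0.06, −0.12, −0.01 and −0.28, within the spread of the dye orders. Of 34 measured genes of the polled locus and other horn candidates, FOXL2 and SFRP2 were past 2-fold higher in the scurred animal and SOX9, a factor of cartilage and hair follicles, lower, with −1.27, −0.91, −0.50 and −0.01, and SFRP2 was past 2-fold in the polled animal. Receptors of the interferon cluster near the polled locus stayed within 2-fold: IFNAR1 had 0.28, 0.32, −0.44 and −0.05, IFNAR2 0.43, 0.94, −0.19 and 0.35 (the polled mean turning sign under 3 alternatives), and IFNGR2 0.60, 1.01, −0.35 and −0.11. OLIG1 was not well above background at either horn site, and RXFP2, a relaxin family receptor linked to horns, had 0.21, 0.18, 0.12 and 0.09.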

How the data were processed

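Per the labels, total RNA of skin biopsies was labelled with Cy3 or Cy5 and hybridised to Agilent arrays. The deposited scanner files, made with Agilent Feature Extraction 9.5.1 per the submitters' processing notes, hold the mean and background intensity of each spot on a linear scale. The deposited table of the series holds log10 ratios of red over green, which had a slope of 1 or −1 (exchanged dyes) against the scanner files and column medians of −0.0151, −0.00559, −0.000393 and −0.00437, so their scale and direction are known. It served as an alternative.

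Background was corrected by normexp with an offset of 50, and loess was applied to each array, with limma 3.58.1 in R 4.3.3 and version 1.17.8 of data.table. On the 4 arrays 14 spots flagged as uneven or outliers were left out. Spots of a probe were averaged, ratios turned to horn site over control, and the 2 arrays of an animal averaged, since they hold the same extracts. Arrays with exchanged dyes correlated at −0.665 (scurred) and −0.705 (polled) before turning. All 4 arrays were on 1 chip, so no batch divides them. Levels and bounds came from separate channels (Aquantile). Each RNA was read in both dyes. The mean of 2 animals was tested against 0 with limma (two-sided, Benjamini-Hochberg over 16422 probes, 3.01 total degrees of freedom), after tests on simulated data. SE values are limma's. P-values cover 2 animals of different horn type.

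Of 21475 probes, 17046 had a symbol, from the gene identifier (9717), accession (3398), the human gene in the description (2856, and 690 with a name absent from the reference list), a symbol (299) or an older symbol (86). The reference served for names only, and no genome was used. The brightest of a gene's probes was taken. Named genes were, among genes well above background in all 4 RNAs, the 12 highest and 12 lowest shared, 10 of each opposed direction, 6 of each direction with a bound, and up to 4 and 2 opposed of each of 33 lists, plus all members of the polled locus list and the list of leading genes. The number of arrays limits the precision. The members and lists were chosen with earlier results of these data known. Alternatives are listed in the closing section. A few genes chosen by the rule are not reported here.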

Additional observations from a re-analysis of the deposited data

Results flagged for a closer look

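With 1 animal of each horn type, the differences between the scurred and the polled animal given here were not tested, and animal and horn type cannot be told apart. They were singled out because both arrays of one animal went one way and both arrays of the other the opposite way. There were 35 such genes past 2-fold with the scurred animal higher and 38 with the polled animal higher.

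Among genes higher in the scurred animal, the difference between the animals (scurred minus polled, log2 ratio of horn site over control) was 8.88 for ANKRD1, an ankyrin-repeat protein of striated muscle, 8.37 for KRT10, 6.33 for S100A7, 6.03 for C4BPA and 5.21 for LY6D. It was 4.75 for SAA3, 4.44 for S100A12, 4.38 for KLK5, 4.23 for CCL19 and 4.06 for S100A9. ANKRD1 alone of these is a muscle gene, with log2 ratios of 6.16, 5.89, −2.64 and −3.08 on the 4 arrays.

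Among genes higher in the polled animal, the difference was −5.38 for LCN9, −4.68 for ALDH1A1, −4.54 for GSTA2, −4.19 for SCD, −4.10 for LPO and −3.78 for BDA20. It was −3.67 for THRSP, −3.04 for CLDN8, −2.97 for CDR1 and −2.94 for EMB, a cell adhesion protein.

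For gene lists whose medians lay on opposite sides of 0 by at least 0.1 on all arrays of the 2 animals, the difference of medians was 0.99 for cornified envelope and late epidermis, 1.84 for stress keratins and alarmins and 0.73 for interferon response. It was −0.65 for tight junction and −0.66 for sweat gland and simple epithelium.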

How the results depend on the processing

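The precision is set by 2 animals, 1 of each horn type. Signal over background limits dim genes, for which only bounds are given. The count of probes past the limma threshold was 0 under each of the 10 alternatives in which it was computed. It was not run for the mean of all probes of a gene, since it tests probes, and leaving out an animal allows no test. No paired analysis was possible because each value already is a ratio of horn site to control skin within an animal, and each horn type has 1 animal.

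Of 18 genes higher in both animals, the count became 61 with Agilent's processed signals, 8 with median centring, 30 with offset 10, 73 with the deposited log ratios, 28 with the exchanged dye order only and 84 at 1.5-fold. The 4 genes lower in both became 29 with processed signals, 16 with median centring, 27 with deposited log ratios, 9 with the first and 7 with the exchanged dye order only, and 49 at 1.5-fold. Of the 18 and 4 genes, 17 and 4 were also called with processed signals, 7 and 4 with median centring and 18 and 4 with deposited log ratios. Opposed genes with the scurred animal higher, 35, became 70 with processed signals, 69 with deposited log ratios and 106 at 1.5-fold. Those with the polled animal higher, 38, became 85, 89 and 116, and 23 with median centring. With 1 animal left out, the 4 counts ranged from 128 to 299, 134 to 169, 169 to 299 and 128 to 134. The causes were not tested, other than the lower fold, the looser offset and the single animal, which change the call by construction.

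Alternatives were Agilent's processed signals, median centring, offset 10, no background subtraction, probes detected in all 4 RNAs, no filter, flagged spots kept, deposited log ratios, either dye order alone, the mean of all probes of a gene, 1.5-fold, and leaving out each animal. No gene of these 4 groups chosen by the rule for named genes changed direction under the 7 alternatives in which single genes were followed.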

Other observations

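Nuclear genes of the mitochondrial respiratory chain were slightly lower at the horn site of both animals, with medians of −0.13 in the scurred and −0.17 in the polled animal over 61 genes, of which 18 (29.5%) were lower and 0 higher on all 4 arrays, beside 11.1% and 9.81% of all genes. Cytosolic ribosomal protein genes had medians of 0.00, with a sign that changed between alternatives, and 0.15 over 76 genes, the latter below 0 with median centring. Adipocyte genes were near 0, with medians of 0.04 and 0.10 (the latter turning sign under 2 alternatives) over 26 genes. Of these, 5 (19.2%) were higher and 0 lower on all 4 arrays, beside 9.81% and 11.1% of all genes. CRABP1, which binds retinoic acid, had 1.03, 1.14, −0.40 and −0.57.

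Among 2828 tested probes with no gene symbol, 0 were past 2-fold in the same direction in both animals. Of the genes with a symbol, 0.144% were higher and 0.0321% lower in both. Of the 2828 probes, 3 opposed with the scurred animal higher and 7 with the polled animal higher, beside 0.281% and 0.305% of the genes with a symbol.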
